A study of Mus musculus with 12 samples.

Results

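The 8 S100a genes described here, S100a8, S100a9, S100a4, S100a6, S100a10, S100a11, S100a13 and S100a1, were taken by name from the 27998 gene columns of single-cell RNA-seq tables of mouse bone marrow, and all 8 had UMIs in every library. A UMI, a unique molecular identifier, marks 1 captured RNA molecule. Levels are given in CPM: the share of a gene in 1000000 UMIs of a library or, where a class of cells is named, of that class within a library. Since only the 3' end of each molecule was read, levels of different genes can be compared without correction for length.

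The cells were c-Kit+ bone marrow cells, a fraction enriched for hematopoietic stem and progenitor cells (HSPCs), from C57BL/6 mice. The labels give an age of 8 to 12 weeks for every library, while the study's text puts the pIpC injection at a younger age. Cells were taken up to 4 months after pIpC, so 8 to 12 weeks cannot be the age at sampling of every library. All mice received pIpC, synthetic RNA whose interferon response induces Mx1-Cre, a recombinase. E2-KO mice were Mx1-Cre+ with floxed Ezh2 alleles (Ezh2 f/f), G12D mice were Mx1-Cre+ with 1 inducible NRas G12D allele (LSL-NRas G12D+/-), and G12D/E2-KO mice carried both. WT mice received pIpC too but had no Mx1-Cre, so the recombinase differs between WT and every mutant, and Mx1-Cre also acts outside blood cells. Each genotype gave 1 library at each of 3 times after pIpC, which were 2 weeks for T1, 2 months for T2 and 4 months for T3, so there were 12 libraries in all, and time points stood in as the replicates of a genotype (n = 3). The labels do not tell how many animals a library holds.

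S100 proteins are small calcium-binding proteins with a pair of EF hands that mostly act as dimers. S100a8 and S100a9 pair to form calprotectin, the most abundant protein of the neutrophil cytosol, which binds zinc and manganese and, once released, signals through Tlr4 and Ager. The other members are found in many cell types and bind targets such as annexins and myosin.

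All 8 genes lie on chromosome 3 (mm10). A first group of 6 spans 90511034 to 90695721: S100a1 (90511034 to 90514392, minus strand), S100a13 (90514435 to 90524581, plus), S100a4 (90603771 to 90606045, plus), S100a6 (90612882 to 90624181, plus), S100a8 (90668978 to 90670035, plus) and S100a9 (90692632 to 90695721, minus). S100a11 (93520488 to 93526287, plus) and S100a10 (93555080 to 93564643, plus) form a second group of 2. S100a1 and S100a13 point away from each other with 42 bases between their starts, and 22596 bases separate S100a8 from S100a9. Nras lies on the same chromosome, 9.49 to 12.5 Mb away, so the engineered NRas allele and the members are linked in the G12D and G12D/E2-KO mice.

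The promoters of S100a8, S100a9, S100a4, S100a6 and S100a13, each called in at least 1 comparison below, are shown, from 250 bases before to 50 bases after the annotated start (RefSeq, GRCm38.p6), 5' to 3' along the strand of the gene. Capitals mark matches on either strand to a C/EBP motif (TTNNGNAA), an ETS motif as bound by PU.1 (GAGGAA) or a TATA box (TATAAA), and adjoining matches run together.
S100a8, chr3:90668821-90669120: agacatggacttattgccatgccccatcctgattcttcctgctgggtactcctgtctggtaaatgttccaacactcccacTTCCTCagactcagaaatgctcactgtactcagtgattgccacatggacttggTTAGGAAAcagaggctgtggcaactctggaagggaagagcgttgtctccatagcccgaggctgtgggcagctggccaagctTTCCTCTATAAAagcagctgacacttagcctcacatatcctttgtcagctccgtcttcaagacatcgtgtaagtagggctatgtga
S100a9, chr3:90695672-90695971: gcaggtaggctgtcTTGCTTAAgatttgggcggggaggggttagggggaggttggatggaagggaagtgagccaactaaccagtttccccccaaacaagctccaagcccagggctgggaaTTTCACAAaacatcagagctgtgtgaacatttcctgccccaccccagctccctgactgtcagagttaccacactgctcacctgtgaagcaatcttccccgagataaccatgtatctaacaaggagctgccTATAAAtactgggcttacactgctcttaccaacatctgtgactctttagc
S100a4, chr3:90603520-90603819: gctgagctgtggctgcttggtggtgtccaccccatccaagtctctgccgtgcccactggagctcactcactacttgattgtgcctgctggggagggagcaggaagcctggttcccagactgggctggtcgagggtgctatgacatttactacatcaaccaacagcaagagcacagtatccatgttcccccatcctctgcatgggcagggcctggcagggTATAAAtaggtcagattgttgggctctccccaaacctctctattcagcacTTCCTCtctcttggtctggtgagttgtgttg
S100a6, chr3:90612644-90612943: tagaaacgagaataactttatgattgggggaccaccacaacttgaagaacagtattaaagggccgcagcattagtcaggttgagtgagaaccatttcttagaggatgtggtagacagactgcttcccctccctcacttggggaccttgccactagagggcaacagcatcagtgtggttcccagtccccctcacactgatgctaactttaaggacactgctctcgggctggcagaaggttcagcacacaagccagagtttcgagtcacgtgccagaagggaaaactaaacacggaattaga
S100a13, chr3:90514185-90514484: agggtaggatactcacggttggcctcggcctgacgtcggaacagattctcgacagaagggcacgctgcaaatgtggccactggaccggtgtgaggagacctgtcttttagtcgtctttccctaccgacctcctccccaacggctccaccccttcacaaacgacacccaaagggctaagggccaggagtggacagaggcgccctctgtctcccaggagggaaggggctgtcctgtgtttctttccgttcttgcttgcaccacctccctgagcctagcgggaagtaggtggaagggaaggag
The S100a8 window held 1 C/EBP match (at -117 from the start), 2 ETS matches (-170 and -36) and a TATA box at -30, with 4 CpG dinucleotides. The S100a9 window held 2 C/EBP matches (-236 and -130), 0 ETS matches and a TATA box that begins at the annotated start, with 2 CpG. The S100a4 window held 0 C/EBP matches, 1 ETS match (at 20 after the start) and a TATA box at -31, with 2 CpG. The windows of S100a6 and S100a13 held none of the 3 motifs, and had 6 and 14 CpG, against a median of 7 over all windows. Of 32817 windows of the same length, 40.7% held the C/EBP letters, 28.3% the ETS letters and 13.6% the TATA letters, so single matches are common. Of the 8 members 7 had a window, and that of S100a1 overlaps the S100a13 window on the other strand.

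The 12 libraries held 2350 to 3767 cells and 12636998 to 23646292 UMIs each. Before counting, 2896 of the 5648 cells of the deposited G12D T1 table were left out because they matched cells of the G12D/E2-KO T1 table, where they were kept. S100a8 stood at 55775 CPM in the matched cells, 56394 CPM in G12D/E2-KO T1 and 43535 CPM in the remaining G12D T1 cells. Xist was high in the T3 libraries of WT, E2-KO and G12D and not in G12D/E2-KO T3, and the labels give no sex. Ezh2, the deleted gene, was lower than in WT in E2-KO (log2 -1.92, adjusted p 0.000357 in edgeR) and in the double mutant (log2 -2.36, adjusted p 0.000115), and had a log2 difference of -0.29 in G12D (adjusted p 0.493).

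Cells were assigned to classes by scores of marker genes that include no S100a gene. Of 32701 cells 90.3% received a class, 1558 of them (5.28%) close to a limit, and 88.9% of cells named both ways had the same class from clusters of WT cells. Those that reached 20 cells in each of the 12 libraries were 7 in number: stem cells and multipotent progenitors (HSC/MPP), granulocyte-macrophage progenitors and early granulocytes (GMP/early GN), late granulocytes (late GN), pro-monocytes (ProMo), megakaryocyte-erythroid progenitors (MEP), early erythroid cells (EryP/early Ery) and late erythroid cells (late Ery). Late GN cells made up 27.0 to 35.8% of the WT cells of this c-Kit+ fraction.

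The place of each member in WT marrow was described first, with orders that hold among these 7 classes. S100a8 and S100a9 were highest in late GN, at 178240 ± 11677 and 134331 ± 11220 CPM (mean ± SD, n = 3), and then in GMP/early GN, at 18380 ± 2075 and 11995 ± 2659 CPM. Both steps were larger than the spread between libraries. Late GN held 83.6% of all S100a8 UMIs and 84.0% of all S100a9 UMIs of WT. In the 5 other classes S100a8 ran from 2117 to 3622 CPM and S100a9 from 1932 to 3044 CPM, and neighbours in that order overlapped. Among the small classes, the 53 macrophages of WT, pooled over 3 libraries, had 97534 CPM of S100a8 and 76020 CPM of S100a9, above the GMP/early GN levels. Over all genotypes, the median macrophage scored 1.77 for its own list and 0.50 for the immature late GN list. The part of granulocyte RNA in the macrophage levels was not tested.

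S100a6, which binds the ubiquitin ligase adaptor Cacybp, was also highest in late GN (541 ± 38.3 CPM), followed by ProMo (146 ± 28.7) and HSC/MPP (58.0 ± 7.92), with no overlap between these 3. The pooled macrophages of WT had 264 CPM of S100a6 (exact Poisson 95% interval 210 to 327, counting error only), and the part of granulocyte RNA in it was not tested. Late GN cells with the mature marker list had 2158 to 2580 CPM of S100a6 and those with the immature list 472 to 547 CPM. S100a11, a partner of Anxa1, fell in steps that did not overlap from late GN (2045 ± 83.7 CPM) to GMP/early GN (989 ± 78.0), ProMo (500 ± 36.0) and HSC/MPP (277 ± 31.4). S100a13, which takes part in the release of Fgf1, had the smallest ratio of highest to lowest class mean among the 8 members over these 7 classes, from 215 ± 7.57 CPM in late GN and 172 ± 3.35 in GMP/early GN to 25.1 ± 3.36 in late Ery.

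S100a10 and S100a4 had other patterns. S100a10, which forms a tetramer with Anxa2, was highest in MEP (483 ± 115 CPM) and ProMo (418 ± 39.5), which overlapped, and was lowest in late GN (8.99 ± 4.58). S100a4, which binds non-muscle myosin, was rare, with 53 to 83 UMIs in a whole WT library. It stood at 29.9 ± 1.43 CPM in ProMo, at 9.42 ± 4.33 in HSC/MPP and at 1.51 CPM or less in the 5 other classes, and ProMo held 51.0% of its WT UMIs. In the 49 dendritic cells of WT S100a4 had 17 UMIs, of which 15 were in T1, 2 in T2 and 0 in T3, too uneven to give a level. S100a1, known from heart and skeletal muscle, was highest among the 7 classes in GMP/early GN (202 ± 14.6 CPM), above ProMo (114 ± 15.7), and stood at 222 CPM (189 to 260) in the 62 megakaryocytic cells of WT, again pooled.

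**Figure D1:**
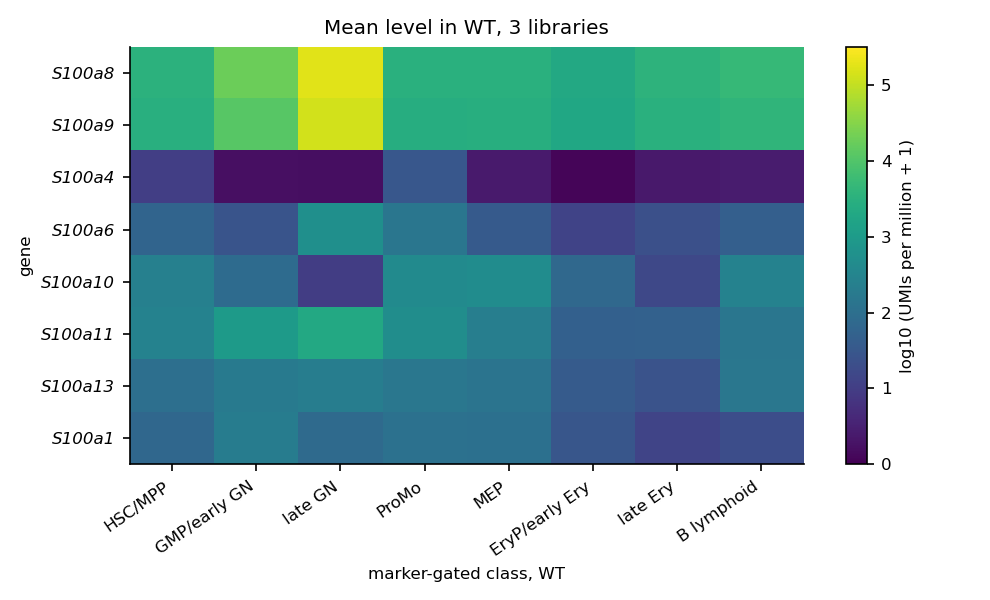
Colour gives the mean level of each S100a gene (rows) in each marker-gated class (columns) over the 3 WT libraries, as log10 (CPM + 1). Among the 8 classes plotted S100a8 and S100a9 peak in late GN, S100a10 in MEP and ProMo, S100a4 in ProMo and S100a1 in GMP/early GN.

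Over 8 WT classes (B lymphoid cells included) and 3935 genes, the genes with the pattern most like S100a8 were S100a9, Chil3 and Wfdc21 (Pearson r 0.998 each). For S100a6 they were Chmp2a (0.917), Lgals3 (0.912) and Lyz1 (0.901), and for S100a11 Tcn2 (0.981), Hcst (0.980) and Serpinb1a (0.978). S100a10 was most like Cldnd1 (0.979), Meaf6 (0.974) and Tmco1 (0.966). S100a13 was most like Ppp2r5a (0.984), Twf2 (0.983) and Sh3bgrl3 (0.977), and S100a1 most like Palm (0.960), Gng12 (0.948) and Rab32 (0.938). The points are classes of the same 3 libraries, so these values are descriptions.

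The next comparison asked how each mutation changed the members over all cells. S100a8 stood at 38767, 42007 and 48977 CPM in WT at T1, T2 and T3, at 19888, 13640 and 25100 in E2-KO, at 43535, 39598 and 40434 in G12D, and at 56394, 33996 and 12236 in the double mutant. S100a9 stood at 32516, 29240 and 35287 CPM in WT, at 14091, 9706 and 15772 in E2-KO, at 29894, 26631 and 30881 in G12D, and at 38667, 19491 and 8637 in the double mutant. All E2-KO libraries lay below all WT libraries for both genes, while the G12D/E2-KO libraries ran from above the highest to below the lowest WT library. Together both genes took 7.12 to 8.43% of all UMIs in WT, 2.33 to 4.09% in E2-KO, 6.62 to 7.34% in G12D, while the double mutant went from 9.51% at T1 through 5.35% to 2.09% at T3.

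In edgeR, 0 of the 8 members passed the threshold (adjusted p under 0.05) in E2-KO against WT, where 1.59% of 12848 genes did. At an unadjusted p under 0.05 there was 1 member, beside 2066 of the 12848 genes. DESeq2 called 0 members and 454 genes. S100a8 had a log2 difference of -1.18 (SE 0.53, adjusted p 0.336) and S100a9 of -1.32 (SE 0.48, adjusted p 0.244). The calls turned on the G12D/E2-KO T3 library: without it the differences were -1.20 (SE 0.21, adjusted p 0.0147) and -1.34 (SE 0.18, adjusted p 0.00291), both called. With only WT and E2-KO in the fit they were called as well, and with them S100a11 (log2 -0.58, adjusted p 0.0357). The share of all genes called in these 2 fits is not given, so the calls are no result about the members alone.

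In G12D against WT 0 of 8 members passed in edgeR (0.109% of all genes). At an unadjusted p under 0.05 there were 2 members, beside 1522 of 12848 genes. DESeq2 called 147 genes, S100a4 among them (log2 1.34, adjusted p 0.0328). S100a8 and S100a9 differed by -0.06 and -0.13 there, with SE 0.52 and 0.47. In G12D/E2-KO against WT 1 member passed (5.69% of all genes). S100a4 stood at 3.62, 3.51 and 2.71 CPM in WT, 6.84, 3.24 and 9.10 in E2-KO, 11.6, 4.33 and 9.62 in G12D, and 8.80, 11.1 and 10.2 in the double mutant. The G12D/E2-KO libraries were all above the WT libraries, with a log2 difference of 1.56 (SE 0.38, edgeR adjusted p 0.0449). The call was lost without WT T1 (adjusted p 0.147), WT T3 (0.212), E2-KO T1 (0.0665), G12D T1 (0.0570) or G12D/E2-KO T2 (log2 1.13, 0.196), with no filter on low counts (0.0511), and without the T3 libraries (0.0769).

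Groups without overlap were counted next. In E2-KO, 3 of 8 members were lower than WT at all 3 time points, S100a8, S100a9 and S100a11, against 9.99% of all genes, and 1 was higher, S100a13 (15.7% of all genes). In G12D, S100a4, S100a11 and S100a1 were higher (7.28% of all genes) and 0 members lower (9.50%). In G12D/E2-KO, S100a4, S100a6, S100a13 and S100a1 were higher (14.8%) and 0 lower (10.5%). The 3 comparisons share the WT libraries.

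The other members were not called over all cells in any mutant in the fit of all 12 libraries. S100a6 stood at 135, 123 and 162 CPM in WT, 81.7, 66.9 and 162 in E2-KO, 290, 126 and 297 in G12D, and 386, 172 and 166 in the double mutant, and the T2 library of G12D lay within the WT range. S100a11 ran from 649 to 729 CPM in WT, 430 to 557 in E2-KO, 733 to 1049 in G12D, and 473 to 1304 in the double mutant. S100a13 ran from 118 to 127 CPM in WT and from 129 to 193 in G12D/E2-KO (log2 0.41, SE 0.20, edgeR adjusted p 0.206), and without G12D/E2-KO T3 it was called (log2 0.67, adjusted p 0.0223). S100a1 was higher in G12D by 0.63 (SE 0.19, adjusted p 0.290). S100a10 ranged over 98.7 to 150 CPM in WT and over 100 to 163 CPM in the mutants, with log2 differences from WT of 0.03 to 0.25.

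**Figure D2:**
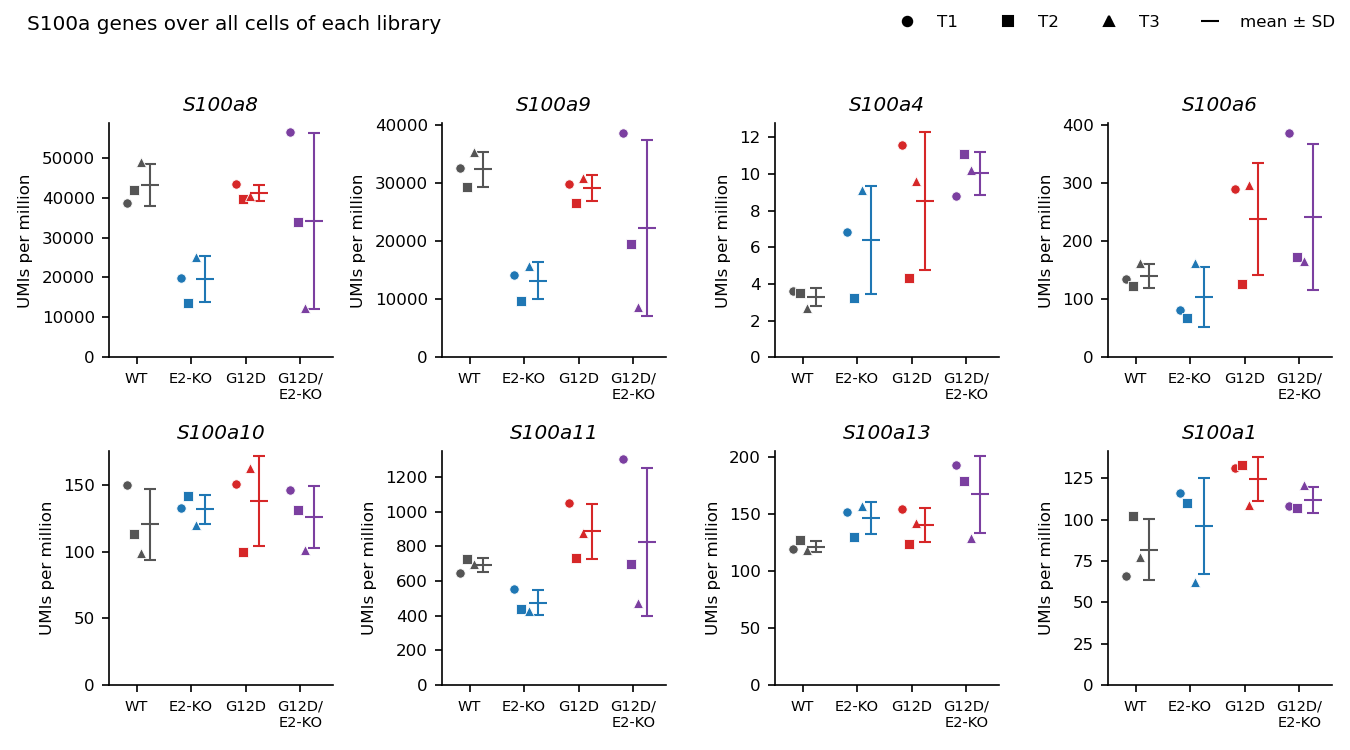
Each panel plots the level of 1 S100a gene over all cells of a library (CPM, axis from 0) by genotype, with 1 point per library (circle T1, square T2, triangle T3) and the mean ± SD of the 3 libraries beside them. The E2-KO points of S100a8 and S100a9 lie below all WT points, and the G12D/E2-KO points fall from 56394 at T1 to 12236 at T3 for S100a8.

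The double mutant was also compared with each single mutant, as the effect of Ezh2 loss on the G12D background and of NRas G12D on the Ezh2-deleted background. In edgeR 0 of 8 members passed against G12D (1.36% of all genes; 0 at an unadjusted p under 0.05, DESeq2 0), 0 against E2-KO (0.0934%; 2 and 0) and 0 in the interaction (0.0934%; 0 and 0). The interaction is the G12D/E2-KO difference from WT minus both single differences. Between time points 0 members passed for T2 against T1 (0% of all genes) and for T3 against T1 (0%), with 0 at an unadjusted p under 0.05 and 0 in DESeq2 for both. Over all genes 599 and 1677 had such a p, and DESeq2 called 6 and 19. Against E2-KO, leaving out G12D/E2-KO T3 gave 4 calls, S100a8 (log2 1.37, adjusted p 0.0206), S100a9 (1.26, 0.0155), S100a6 (1.71, 0.0281) and S100a11 (1.08, 0.0242). The share of all genes called without that library is not given, so these 4 calls are no result about the members alone.

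Because S100a8 and S100a9 UMIs came mostly from late GN, the share of that class was set beside their levels. Late GN held 31.0 ± 4.48% of WT cells, 11.8 ± 1.90% of E2-KO cells, 33.5 ± 2.00% of G12D cells and 22.9 ± 12.9% of double mutant cells (37.2% at the most and 12.1% at the least). The calculation used the share of UMIs in each class, for late GN 20.3 ± 2.04% in WT and 7.65 ± 1.66% in E2-KO. S100a8 and S100a9 UMIs are part of these shares, so the calculated values are not independent of the levels. With WT levels in every class and the UMI shares of each library, S100a8 was calculated to differ from WT by a log2 value of -0.96 ± 0.20 in E2-KO, and -1.18 ± 0.38 was observed. For S100a9 the values were -0.98 ± 0.20 and -1.32 ± 0.24. Over the 6 pairs of libraries that differ in Ezh2 and share a time point, observed minus calculated averaged -0.19 for S100a8 (exact permutation test by sign flips, two-sided, p 0.281) and -0.30 for S100a9 (p 0.09375). Fewer late GN cells and less RNA per cell can be told apart here only as far as the marker gates hold.

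Between paired libraries, observed minus calculated was higher for S100a6 with either mutation, and for S100a13 with Ezh2 deleted. That difference between pairs is called the excess here. In individual libraries of the mutants the observed level could lie below the calculated one, by -0.16 for S100a6 in G12D T2 and -0.07 for S100a13 in G12D/E2-KO T3. For S100a6 the excess with Ezh2 deleted was 0.40 on the log2 scale and that with NRas G12D 0.51, and both were positive in 6 of 6 pairs. For S100a13 the excess with Ezh2 deleted was 0.29, also in 6 of 6 pairs. The lowest pair values were 0.08 and 0.04 for S100a6 and 0.00, after rounding, for S100a13. Each gave p 0.03125 in the exact permutation test, the smallest that 6 pairs allow, and 0.167 after Benjamini-Hochberg adjustment over the 16 tests of 8 genes and 2 effects, so none passed the correction. For S100a13 the NRas G12D value was -0.08, positive in 3 of 6 pairs (exact permutation p 0.719).

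Within late GN, S100a9 was lower than WT in the double mutant. It stood at 142847, 121617 and 138529 CPM in WT, 115279, 102853 and 126503 in E2-KO, 107348, 106299 and 119904 in G12D, and 114753, 97845 and 85501 in the double mutant. The G12D/E2-KO libraries lay below all WT libraries, with a log2 difference of -0.62 (SE 0.17, edgeR adjusted p 0.0323), 1 of the 2 members called there, where 4.78% of genes were. Of 24 alternatives 11 lost this call. It fell to -0.39 without G12D/E2-KO T3 (adjusted p 0.0600), and it was also lost without WT T1, WT T2, WT T3, E2-KO T1, G12D T2 or G12D/E2-KO T2 (adjusted p 0.0520 to 0.160), or with only the 2 genotypes in the fit (0.156). In both single mutants the S100a9 difference was -0.33 and not called (adjusted p 0.289 in E2-KO and 1.0 in G12D), although the G12D libraries also lay below all WT libraries. S100a8 differed by -0.45 in G12D/E2-KO (SE 0.20, adjusted p 0.202), with 111504 CPM in G12D/E2-KO T3 against 165341 and 165928 CPM at T2 and T1. With no filter on low counts S100a8 was called there (-0.52, edgeR adjusted p 0.0211).

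S100a6 was the other member called in late GN of G12D/E2-KO. It stood at 532, 508 and 583 CPM in WT, 588, 531 and 1158 in E2-KO, 882, 470 and 974 in G12D, and 1174, 838 and 1418 in the double mutant, which did not overlap with WT (log2 0.84, SE 0.19, edgeR adjusted p 0.0175). Cells of the mature marker list, which hold more S100a6, made up 1.75 to 3.79% of late GN in WT and 8.66%, 3.0% and 12.3% in G12D/E2-KO. Without those cells the difference was 0.80 (adjusted p 0.0172). The call was lost without WT T1 (adjusted p 0.0781), WT T3 (0.133), G12D/E2-KO T1 (0.0669) or G12D/E2-KO T2 (0.0877), and with the tables as deposited (0.0550). In E2-KO (2.16% of genes) and G12D (0.150%) 0 members passed in late GN in edgeR, with 1 member each at an unadjusted p under 0.05 and 0 in DESeq2. Of 8658 genes, 1551 and 388 had such a p, and DESeq2 called 176 and 22. S100a1 was the nearest, at 64.3, 102 and 65.7 CPM in WT and 139, 151 and 80.9 CPM in E2-KO (log2 0.55, SE 0.16, adjusted p 0.0632), and it was called with only the 2 genotypes in the fit (0.00989), without G12D/E2-KO T2 (0.0391), with sex as a covariate (0.0475) and with classes from WT clusters (0.0407).

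In ProMo, S100a6 was called in all 3 mutants. It stood at 150, 115 and 172 CPM in WT, 269, 292 and 378 in E2-KO, 358, 217 and 257 in G12D, and 296, 329 and 306 in the double mutant, and every mutant library lay above every WT library. The log2 difference was 1.14 in E2-KO (SE 0.20, edgeR adjusted p 0.00261), 0.97 in G12D (SE 0.20, adjusted p 0.0223) and 1.05 in G12D/E2-KO (SE 0.20, adjusted p 0.00284). It was 1 of 2 members called in E2-KO (0.505% of genes), and the 1 member called in G12D (0.172%) and in the double mutant (2.48%). The 3 comparisons share the WT libraries, and the interaction of -1.06 had an adjusted p of 0.342. The interaction was called with no filter on low counts (-1.06, edgeR adjusted p 0.00862) and without G12D/E2-KO T2 (-1.30, 0.0235).

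The S100a6 differences in ProMo kept their size with classes taken from WT clusters (0.99 in each mutant) but none passed there (adjusted p 0.170, 0.504 and 0.0720). The G12D call was also lost without WT T1 (adjusted p 0.270), WT T2 (0.296) or G12D T1 (log2 0.70, 0.408). If all S100a9 UMIs of ProMo came with S100a6 at the ratio of late GN of the same library, which was assumed and not measured, they would bring 7.35 to 14 CPM of S100a6 in WT and 3.41 to 27.5 CPM in the mutants. The summed immature late GN markers in ProMo were lower in E2-KO (662 to 861 CPM) than in WT (1865 to 3041 CPM), with all 8 markers seen, and the 9 ProMo markers summed to 1858 to 2131 CPM in WT and 1661 to 2364 CPM in the mutants. Late Ery markers in ProMo summed to 1315 to 1881 CPM in WT and 1128 to 5837 CPM in E2-KO. Thinned to 1400 UMIs, 17.5 ± 6.01% of ProMo cells of WT had a S100a6 UMI, as did 25.2 ± 3.47% of E2-KO, 24.3 ± 6.07% of G12D and 26.0 ± 0.752% of G12D/E2-KO, against 1.63 ± 0.643% of EryP/early Ery cells of WT (unthinned 49.7, 60.0, 63.2 and 52.2%, against 13.4%). The median ProMo cell scored 2.02 for its own list and 0.88 for that of GMP/early GN, and 140 of the 1945 ProMo cells lay near a limit.

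S100a4 in ProMo had a like order of values with fewer UMIs. It stood at 28.8, 31.5 and 29.4 CPM in WT (26, 51 and 26 UMIs), at 105, 41.6 and 113 in E2-KO, 64.4, 45.3 and 41.6 in G12D, and 72.6, 97.9 and 81.2 in the double mutant, again with every mutant library above every WT library. In edgeR 0 of these passed, with log2 differences of 1.49 (SE 0.37, adjusted p 0.141), 0.76 and 1.41 (SE 0.35, adjusted p 0.0773). DESeq2 called S100a4 in E2-KO (39 of 8117 genes called) and in G12D/E2-KO (92). Several other settings called it too. Both of these differences passed in edgeR with no filter on low counts (log2 1.46 and 1.40) and without E2-KO T2 (1.95 and 1.42, adjusted p 4.82e-06 and 4.39e-05), and all 3 with only the 2 genotypes in the fit (1.42, 0.77 and 1.44, adjusted p 0.00156, 0.0316 and 0.000337). The G12D/E2-KO difference also passed without E2-KO T3, G12D T1, G12D T3 or G12D/E2-KO T1 (adjusted p 0.005 to 0.0450), and that of E2-KO without G12D/E2-KO T2 (0.00614). The 12 dendritic cell markers summed to 254 to 1171 CPM in ProMo of WT and 258 to 1068 CPM in the mutants, and their part in the S100a4 values was not tested. S100a4 was seen in 4.76 ± 1.10% of WT ProMo cells when each cell was thinned to 1400 UMIs, in 12.7 ± 4.44% in E2-KO, 8.92 ± 2.23% in G12D, and 10.6 ± 1.30% in the double mutant. Unthinned the shares were 19.4, 29.5, 24.2 and 29.8%. In EryP/early Ery, which should lack S100a4, the thinned share was 0% in all 12 libraries and the unthinned share 0.240 to 1.10%. Median depths were 6864 to 12286 UMIs for ProMo cells and 7814 to 15425 UMIs for EryP/early Ery cells.

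**Figure D3:**
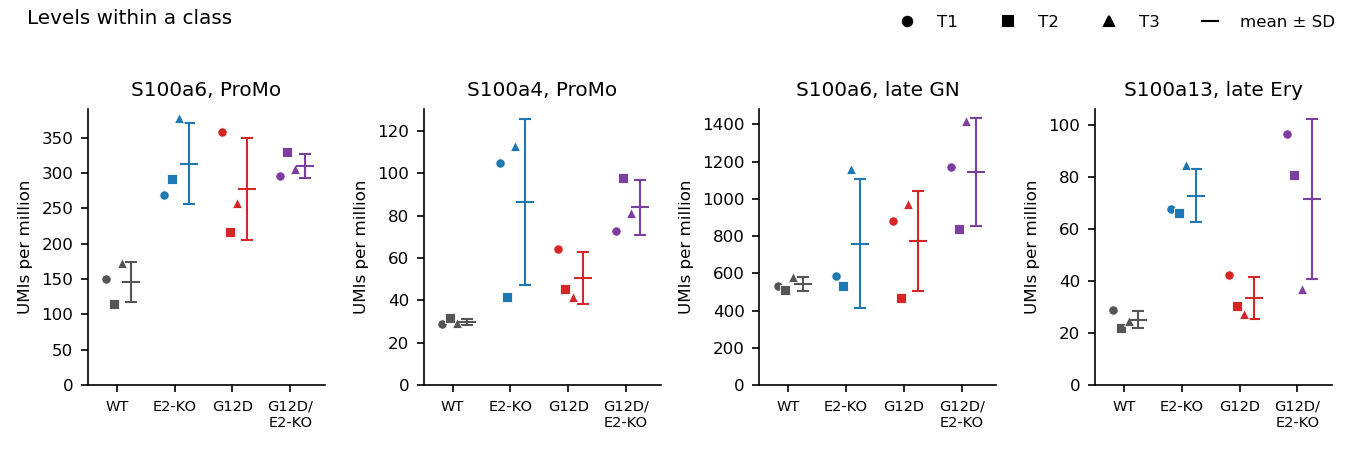
Levels (CPM, axis from 0) within a class by genotype, with 1 point per library (circle T1, square T2, triangle T3) and mean ± SD of 3 libraries. In ProMo all 9 mutant libraries lie above the WT libraries for S100a6 (217 to 378 against 115 to 172) and S100a4 (41.6 to 113 against 28.8 to 31.5), and in late Ery the E2-KO libraries of S100a13 lie at 66.1 to 84.4 against 22.1 to 28.7 in WT.

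S100a13 was higher than in WT in late erythroid cells of mice with Ezh2 deleted. In late Ery it stood at 28.7, 22.1 and 24.5 CPM in WT (16, 33 and 21 UMIs), at 67.6, 66.1 and 84.4 in E2-KO (86, 71 and 165 UMIs), at 42.4, 30.4 and 27.4 in G12D, and at 96.5, 80.8 and 37.0 in the double mutant (123, 57 and 15 UMIs). All libraries with Ezh2 deleted lay above all WT libraries, and G12D/E2-KO T3 was the lowest of them and below G12D T1. The log2 difference from WT was 1.68 in E2-KO (SE 0.25, edgeR adjusted p 8.02e-05) and 1.47 in the double mutant (SE 0.26, adjusted p 0.00135). Both calls held in 23 of 23 alternatives, with differences of 1.34 to 1.89 and 1.31 to 1.69. S100a13 was 1 of 3 members called in late Ery of E2-KO (2.29% of genes) and of G12D/E2-KO (1.44%). S100a6 (20.8 ± 7.66 CPM in WT, 7.26 ± 4.11 in E2-KO, log2 -1.36, adjusted p 0.0553) and S100a11 (50.5 ± 12.5 and 24.9 ± 3.25 CPM, -0.89, 0.0525) just missed the threshold in E2-KO, and both were called there without any 1 of the G12D/E2-KO libraries, with only the 2 genotypes in the fit and with sex as a covariate. Per 1000 S100a9 UMIs, S100a6 had 6.80 UMIs in late Ery of WT and 8.36 in E2-KO, against 4.04 and 6.47 in late GN. For S100a11 the values were 17.1 and 32.1, against 15.3 and 16.5 in late GN. The part of granulocyte RNA in both levels was not tested.

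Against G12D, S100a13 in late Ery of G12D/E2-KO differed by 1.22 (SE 0.27, adjusted p 0.0189; 0.993% of genes called). That call was lost in 8 of 23 alternatives, among them DESeq2 (adjusted p 0.125), the tables as deposited (log2 0.73, adjusted p 0.995) and the fits without G12D T1 (0.107), G12D T2 (0.171), G12D T3 (0.107), G12D/E2-KO T1 (0.156) or G12D/E2-KO T2 (0.0773). In G12D alone, late Ery had 0 members called in edgeR (0.0608% of genes). At an unadjusted p under 0.05 there was 1 member, beside 321 of 4937 genes. Thinned to 1400 UMIs, 3.64 ± 1.45% of late Ery cells of WT had a S100a13 UMI, as did 10.9 ± 1.76% of E2-KO, 5.81 ± 1.24% of G12D and 9.56 ± 5.38% of G12D/E2-KO. Unthinned the shares were 11.3, 21.0, 11.4 and 21.6%. Granulocyte RNA at the late GN ratio would bring 3.16 to 6.11 CPM of S100a13 in WT late Ery and 1.25 to 2.34 CPM in E2-KO. The GMP/early GN markers, another class with S100a13, summed to 329 to 395 CPM in late Ery of WT and 255 to 391 CPM in E2-KO, and in G12D/E2-KO to 289 to 993 CPM. In EryP/early Ery, S100a13 stood at 33.8 to 38.8 CPM in WT and 37.3 to 52.9 CPM in E2-KO, and was not called. Late Ery was not the only class with higher levels in E2-KO. Without a call, E2-KO lay above WT in GMP/early GN (205 to 252 against 169 to 176 CPM) and late GN (232 to 274 against 206 to 221 CPM). In HSC/MPP, ProMo and MEP the E2-KO and WT ranges overlapped.

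S100a8 and S100a9 were found in every class. In EryP/early Ery, which should make neither, S100a8 stood at 2478, 1551 and 2323 CPM in WT, 694, 459 and 922 in E2-KO, 2147, 1444 and 1558 in G12D, and 1774, 1081 and 424 in the double mutant. Across the 12 libraries this level had a Pearson r of 0.83 with the share of UMIs held by late GN (0.84 for S100a9), a description over points that share genotype and time. For Ngp, a granule gene of late GN, WT had 437 ± 48.4 Ngp UMIs per 1000 S100a9 UMIs in late GN and 312 ± 23.8 in EryP/early Ery, and G12D had 577 ± 88.9 and 483 ± 37.2. For Camp, Ltf and Lcn2, also granule genes, the WT means were 597, 36.0 and 73.4 in late GN and 490, 33.8 and 50.2 in EryP/early Ery. Those of G12D were 736, 44.1 and 85.1 against 678, 44.0 and 65.8. Among these genes and all genotypes, only Camp in G12D/E2-KO had the higher mean in EryP/early Ery (768 ± 200 against 724 ± 118). Thinned to 1400 UMIs, 91.5 ± 5.73% of EryP/early Ery cells of WT had a S100a8 UMI and 57.8 ± 17.1% in E2-KO, and unthinned 100% and 98.8%. A share of cells with a S100a8 or S100a9 UMI at or below these is not read as expression.

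In late Ery both genes were called lower than WT in E2-KO and in the double mutant. S100a8 there stood at 3766, 2012 and 5086 CPM in WT, 892, 581 and 1411 in E2-KO, and 2369, 1523 and 1577 in G12D/E2-KO, with log2 differences of -1.76 (SE 0.19, edgeR adjusted p 4.56e-07) and -0.95 (SE 0.18, adjusted p 0.00331). S100a9 differed by -1.73 (SE 0.17, adjusted p 1.39e-07) and -0.99 (SE 0.17, adjusted p 0.000729). Relative to EryP/early Ery of the same library, late Ery had 1.67 ± 0.464 times the S100a8 level in WT, 1.36 ± 0.148 times in E2-KO and 2.15 ± 1.35 times in G12D/E2-KO, the last with 3.72 at T3. The 8 immature late GN markers in late Ery summed to 1812 to 3669 CPM in WT, 667 to 968 CPM in E2-KO and 1399 to 2421 CPM in G12D/E2-KO, and their part in the result was not tested. With classes from WT clusters the G12D/E2-KO differences were -0.38 and -0.46 (adjusted p 0.521 and 0.368). Both were also lost with only the 2 genotypes in the fit (adjusted p 0.0832 and 0.0582), and that of S100a8 without WT T3 (0.0686).

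Levels in HSC/MPP and MEP were compared in the same way. In HSC/MPP S100a8 was 0.949 to 1.55 times the EryP/early Ery level of the same library and in MEP 1.02 to 1.44 times, as means over the 4 genotypes. GMP/early GN stood apart, at 8.99 ± 2.15 times in WT, 29.3 ± 2.95 times in E2-KO, 8.56 ± 3.58 times in G12D and 20.2 ± 3.80 in the double mutant. The S100a8 level itself in GMP/early GN was 16766 to 20721 CPM in WT, 14511 to 27943 in E2-KO and 9021 to 28413 in G12D/E2-KO, and overlapped. In edgeR 0 members were called against WT in HSC/MPP (0.281, 0.121 and 0.777% of genes in E2-KO, G12D and the double mutant), GMP/early GN (1.26, 0.163 and 3.14%), MEP (0.421, 0.0581 and 0.610%) and EryP/early Ery (2.69, 0.205 and 2.92%). At an unadjusted p under 0.05 there were up to 3 members per comparison, beside 354 to 2015 genes. The 3 were in HSC/MPP, MEP and EryP/early Ery of E2-KO, beside 691 of 7466, 685 of 6885 and 1366 of 9747 genes. DESeq2 called S100a10 in GMP/early GN of G12D/E2-KO (230 of 10438 genes called). It called S100a6 and S100a9 in EryP/early Ery of E2-KO (216 of 9747). The counts of 0 changed mainly with the G12D/E2-KO T3 library and with the filter. The share of all genes called in these settings is not given, so the calls that follow are no result about the members alone. In GMP/early GN of G12D/E2-KO, S100a6 (0.57, edgeR adjusted p 0.0480) and S100a10 (-0.82, 8.98e-05) were called with no filter. In HSC/MPP of G12D/E2-KO, S100a11 was called without G12D/E2-KO T1 (-0.74, 0.0454). In EryP/early Ery of E2-KO, S100a6 was called without E2-KO T3, G12D T1 or G12D/E2-KO T2 (-1.53 to -2.03, adjusted p 0.0249 to 0.0418). Per 1000 S100a9 UMIs, S100a6 had 6.11 UMIs in EryP/early Ery of WT and 6.88 in E2-KO, against 4.04 and 6.47 in late GN. The part of granulocyte RNA in the S100a6 values of EryP/early Ery was not tested. Without G12D/E2-KO T3 S100a8 and S100a9 were called in E2-KO in HSC/MPP (log2 -1.92 and -1.87, edgeR adjusted p 1.27e-10 and 1.92e-12), MEP (-2.0 and -2.0, 1.23e-08 and 3.48e-11) and EryP/early Ery (-1.61 and -1.65, 1.04e-06 and 6.41e-09). In the same fits both were called in HSC/MPP of G12D (-0.90 and -0.76, adjusted p 0.00116 and 0.00195), and in EryP/early Ery S100a6 in E2-KO (-1.53, 0.0112) and S100a9 in G12D/E2-KO (-0.46, 0.0398). With no filter on low counts S100a8 and S100a9 were called in EryP/early Ery of E2-KO (-1.57 and -1.63, 2.67e-29 and 8.67e-31) and of the double mutant (-0.95 and -1.0, 3.27e-10 and 4.17e-11), and with only the 2 genotypes in the fit in HSC/MPP, MEP and EryP/early Ery of E2-KO (-1.62 to -1.99).

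**Figure D4:**
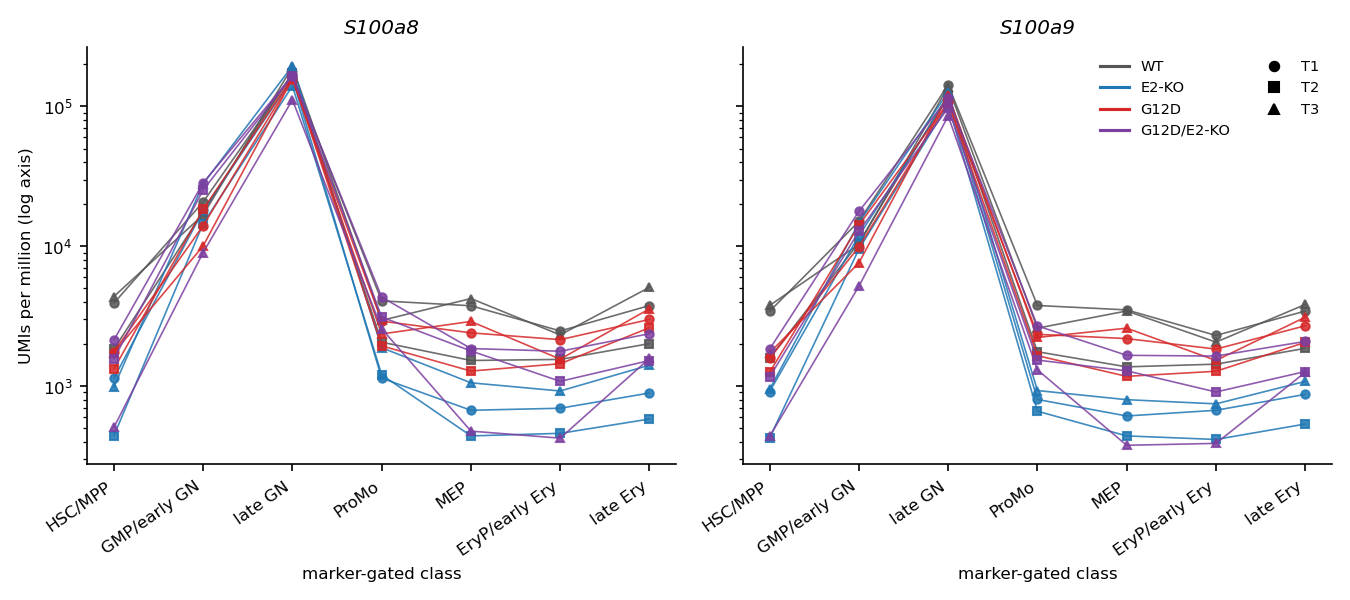
Level of S100a8 (left) and S100a9 (right) in 7 marker-gated classes, in CPM on a log axis, with 1 line per library (colour genotype, symbol time point). S100a8 lies between 111504 and 194756 in late GN in all 12 libraries, while in EryP/early Ery the E2-KO libraries (459 to 922), G12D T2 (1444) and the T2 and T3 libraries of G12D/E2-KO (1081 and 424) lie below the WT libraries (1551 to 2478).

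Within classes the double mutant was also set against both single mutants. In edgeR the interaction had 0 members called in HSC/MPP (0.0670% of genes), GMP/early GN (0.0766%), late GN (0.0578%), ProMo (0.0739%), MEP (0.0436%) and EryP/early Ery (0.0923%), and 1 in late Ery, S100a9 (0.162%). Against G12D, 0 were called in HSC/MPP (0.308%), GMP/early GN (3.74%), late GN (2.81%), ProMo (2.07%), MEP (0.218%) and EryP/early Ery (1.21%), and S100a13 in late Ery was the 1 call. Against E2-KO, 0 were called in HSC/MPP (0.0670%), GMP/early GN (0.0192%), late GN (0.0231%), ProMo (0.0370%), MEP (0.0436%), EryP/early Ery (0.185%) and late Ery (0.223%). Each of these tests had 0 to 4 members at an unadjusted p under 0.05, beside 219 to 1968 genes. The 4 were in late Ery against G12D and against E2-KO, beside 540 and 307 of 4937 genes. DESeq2 called S100a8 and S100a9 in the ProMo interaction, in the late Ery interaction and in ProMo against E2-KO, and S100a9 in late Ery against E2-KO. In these tests it called 9, 11, 5 and 12 genes.

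These counts of 0 for S100a8 and S100a9 changed with several settings. The share of all genes called in those settings is not given, so the calls that follow are no result about the members alone. Without G12D/E2-KO T3 the interaction was called for both in HSC/MPP (log2 2.28 and 2.0, edgeR adjusted p 3.27e-08 and 2.23e-08), MEP (2.20 and 1.94, 5.49e-06 and 1.19e-06) and EryP/early Ery (1.44 for each, 0.00322 and 0.000154), for S100a9 in ProMo (1.71, 1.31e-06) and for S100a8 in late Ery (1.36, 0.00181). Against E2-KO both were called in HSC/MPP (1.39 and 1.24, 8.57e-06 and 7.05e-06), MEP (1.78 and 1.56, 2.71e-06 and 1.09e-06), EryP/early Ery (1.22 and 1.20, 0.000594 and 1.97e-05) and late Ery (1.02 and 0.92, 0.00147 and 0.00201), and S100a9 in ProMo (1.40, 1.21e-07). With G12D/E2-KO T3 left out the double mutant rests on 2 libraries. Without E2-KO T3 the interaction was called for S100a8 in ProMo (1.74, 0.0110) and late Ery (1.41, 0.0165), and both genes were called against E2-KO in ProMo (1.47 and 1.28, 0.00417 and 0.0228) and late Ery (1.05 and 0.90, 0.0228 and 0.0255). With no filter on low counts the interaction was called for both in ProMo (1.42 and 1.39) and EryP/early Ery (0.90 and 0.92) and for S100a8 in late Ery (1.11), and in EryP/early Ery both were called against G12D (-0.68 and -0.71) and E2-KO (0.63 for each). In the same setting both were called against E2-KO in ProMo (1.17 and 1.11) and S100a8 in late Ery (0.75). Against G12D, S100a9 in late Ery was called with no filter, without E2-KO T3 or without G12D/E2-KO T2 (-0.63 to -0.73, adjusted p 0.0202 to 0.0480). In GMP/early GN, S100a8 was called against G12D with no filter (0.50, edgeR adjusted p 0.0198) and without the T3 libraries (0.71, 0.0114). Without the T3 libraries it was also called there against E2-KO (0.76, 0.0221). Other members changed too, among them S100a10 against G12D in GMP/early GN with no filter (-0.64, 0.00530) and in EryP/early Ery without the T3 libraries (1.01, 0.00332).

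The ratio of S100a8 to S100a9 does not depend on how much granulocyte RNA a class holds if all of it has 1 source. Whether that held was not tested. Over all cells WT had 1.34 ± 0.129 S100a8 UMIs per S100a9 UMI, E2-KO 1.47 ± 0.106, G12D 1.42 ± 0.0949 and G12D/E2-KO 1.54 ± 0.178. The late GN mean was 1.33 ± 0.127 for WT, 1.43 ± 0.0975 for E2-KO, 1.44 ± 0.110 for G12D and 1.48 ± 0.195 for the double mutant. In EryP/early Ery the ratio was 1.10 to 1.13 as a mean in every genotype, below all late GN means. The WT libraries ran from 1.08 to 1.13 in EryP/early Ery and from 1.19 to 1.43 in late GN. Both classes were also apart within each mutant. ProMo differed between genotypes: the ratio was 1.13 ± 0.0461 in WT and 1.16 ± 0.0923 in G12D, and 1.75 ± 0.307 in E2-KO and 1.87 ± 0.228 in the double mutant. The libraries with Ezh2 deleted, at 1.42 to 2.03, did not overlap with those without, at 1.06 to 1.24.

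Over the 6 pairs of libraries the ProMo ratio was higher with Ezh2 deleted by 0.65 ± 0.22 on the log2 scale, in 6 of 6 pairs (exact permutation test by sign flips, two-sided, p 0.03125, the smallest possible). Adjusted over 16 tests of 8 cell sets and 2 effects, p was 0.5, and every other unadjusted p was 0.0625 or more. Within ProMo S100a9 fell in E2-KO, from 3769, 1760 and 2595 CPM in WT to 802, 661 and 929 CPM (log2 -1.67, SE 0.23, edgeR adjusted p 0.000988), and the call was lost with classes from WT clusters (log2 -1.61, adjusted p 0.235). S100a8 differed there by -1.02 (SE 0.28, adjusted p 0.189), and was called in DESeq2 (-1.02, adjusted p 0.00913), with no filter on low counts (-1.05, 1.67e-07) and without E2-KO T3 (-1.38, 0.00474). Relative to EryP/early Ery of the same library, S100a9 in ProMo was 1.37 ± 0.228 times in WT, 1.35 ± 0.218 times in E2-KO, 1.34 ± 0.102 times in G12D and 2.23 ± 0.976 in the double mutant (3.36 at T3), and S100a8 1.41 ± 0.20 times in WT, 2.10 ± 0.495 times in E2-KO, 1.40 ± 0.0956 times in G12D and 3.79 ± 1.97 in the double mutant, the last with 6.06 at T3. The neighbouring GMP/early GN class had S100a8 to S100a9 ratios of 1.56 ± 0.157 in WT and 1.35 ± 0.0649 in G12D, against 1.65 ± 0.219 in E2-KO and 1.78 ± 0.192 in the double mutant. They were higher with Ezh2 deleted by 0.24 ± 0.25 on the log2 scale, in 5 of 6 pairs (exact permutation p 0.0625), and the part of that class in the ProMo ratio was not tested.

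**Figure D5:**
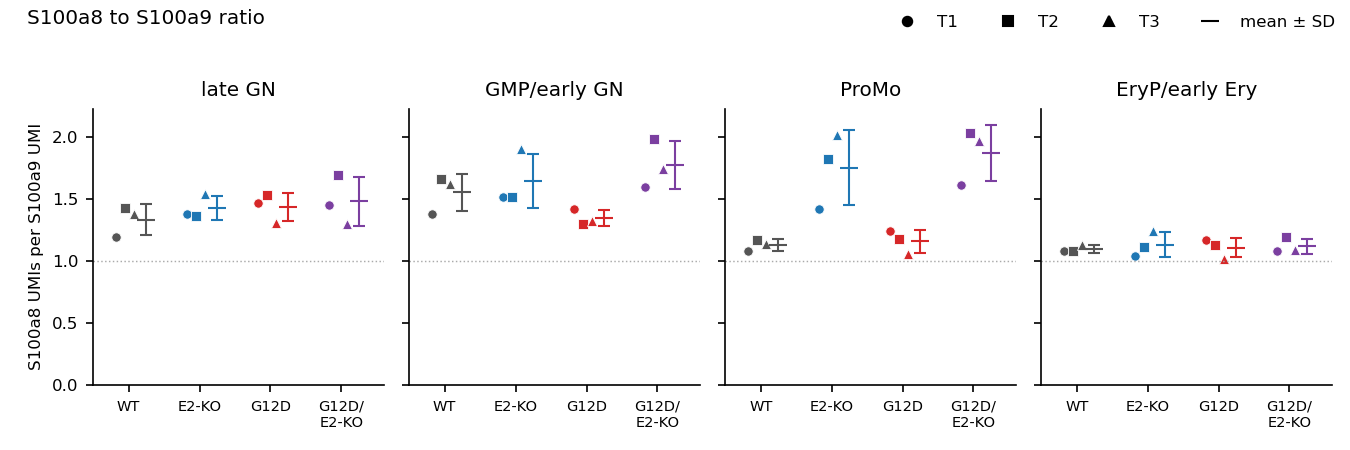
S100a8 UMIs per S100a9 UMI (axis from 0, dotted line at 1) in 4 marker-gated classes by genotype, with 1 point per library (circle T1, square T2, triangle T3) and mean ± SD of 3 libraries. In ProMo the E2-KO and G12D/E2-KO libraries (1.42 to 2.03) lie above the WT and G12D libraries (1.06 to 1.24), and in EryP/early Ery all genotypes have means of 1.10 to 1.13.

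Genes that work with S100 proteins were read from the same all-cell tests. Of 9 other S100 genes only S100a3 was abundant enough to test, and it was not called against WT in any mutant. Of 4 receptor genes (Ager, Tlr4, Cd36 and Bsg) 1 was called higher in G12D/E2-KO, where 5.69% of all genes were called. Tlr4, a receptor of calprotectin, stood at 2.55, 3.04 and 2.46 CPM in WT, at 3.90, 3.99 and 3.64 in E2-KO, at 4.01, 2.50 and 4.93 in G12D, and at 5.07, 5.12 and 6.22 in the double mutant (log2 0.95, SE 0.24, edgeR adjusted p 0.0444). The E2-KO libraries lay above all WT libraries too, and those of G12D overlapped with them. The 5 tested of 6 binding partners (Anxa2, Ahnak, Anxa1, Myh9, Cacybp and Fgf1), all 6 NADPH oxidase subunits and the 5 tested of 6 myeloid transcription factors had 0 calls in each of the 3 comparisons with WT. Their median log2 differences in E2-KO were -0.14, -0.69 and -0.00, those in G12D 0.29, 0.29 and 0.43, and those in G12D/E2-KO 0.08, -0.02 and 0.51. The median over all genes was 0.00, -0.01 and 0.01.

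Linkage to the engineered allele was described by counting calls around Nras. Within 15 Mb of Nras, a stretch that holds all 8 members, 0 of 280 genes tested were called in G12D against WT (0.104% of all genes with a position), and 15 (5.36%) in G12D/E2-KO against WT (5.75%). In E2-KO, which carries no engineered NRas allele, 3 (1.07%) were called there (1.60%).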

How the data were processed

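Single-cell 3' RNA-seq libraries (10x Genomics) of c-Kit+ bone marrow cells were used. The authors aligned reads with Cell Ranger to mm10, left out cells with over 10% mitochondrial UMIs and predicted doublets, and deposited raw UMI counts per gene and cell. All 12 tables were used and 0 columns belonged to other samples. No doublet caller was run.

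Cells of the G12D T1 table that matched cells of the G12D/E2-KO T1 table were counted in the latter only. Classes came from 136 marker genes: a cell took the class with the highest mean score if that was at least 0.4 and led the next class by at least 0.2. Of the 136, 2 had no UMI in WT and did not enter the scores. Trac and Trbc2, listed besides these, were not analysed here. UMIs were summed per library and class, and the sums were tested with edgeR 4.0.16 (robust quasi-likelihood, TMM factors, terms for genotype and time point, all 12 libraries, low counts filtered by filterByExpr), with Benjamini-Hochberg adjustment over all genes tested and a threshold of 0.05. DESeq2 1.42.0, other factors, filters, gates and left-out libraries were alternatives. The labels name no separate animals, so p-values rest on these libraries and not on a spread between animals. The edgeR fit also shares its estimate of spread across genes, so an SE can be smaller than the spread of that gene. With no filter on low counts, S100a8 in EryP/early Ery of G12D/E2-KO had SE 0.13, while its libraries ran from 424 to 1774 CPM. Ratios and levels calculated from class shares were compared over 6 pairs of libraries by exact sign-flip permutation tests (two-sided). Likeness is the Pearson r of log2 levels with a pseudocount of 1 CPM. Poisson intervals cover counting error only. On simulated counts for E2-KO against WT over all cells (12484 genes), 79% of 2-fold and 100% of 4-fold changes were recovered with 14 false calls. The simulation gave every gene the same biological coefficient of variation, 0.19, and no effect of time point or of a single library. Genes with low WT levels were not changed. The recovery need not hold for S100a8 and S100a9, whose G12D/E2-KO libraries spread widely.

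All 8 members are described, and further genes are named where a list or likeness rule (the 3 most alike genes with at least 50 CPM) gives them. The members and lists were chosen with earlier results of these data known. Cebpd was not analysed here. Python packages were numpy 2.4.6, scipy 1.17.1 and scikit-learn 1.9.0.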

Additional observations from a re-analysis of the deposited data

Results flagged for a closer look

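In late Ery, the S100a9 level passed the test of the interaction: its G12D/E2-KO difference from WT exceeded the sum of both single differences by 1.12 on the log2 scale (SE 0.24, edgeR adjusted p 0.0425, 0.162% of genes called). S100a9 stood there at 3437, 1862 and 3833 CPM in WT, 872, 535 and 1079 in E2-KO, 2697, 2053 and 3107 in G12D, and 2085, 1270 and 1254 in G12D/E2-KO. Relative to EryP/early Ery of the same library this was 1.55 ± 0.285 times in WT, 1.35 ± 0.0865 times in E2-KO, 1.70 ± 0.297 times in G12D and 1.97 ± 1.09 in the double mutant. The 8 immature late GN markers moved with it, from 1812 to 3669 CPM in late Ery of WT to 667 to 968 CPM in E2-KO and 1399 to 2421 CPM in G12D/E2-KO, and their part in the result was not tested. The call was lost in 12 of 22 alternatives, with values from 0.96 to 1.32, among them the fits without any 1 of the WT libraries, E2-KO T1, E2-KO T2, any 1 of the G12D libraries or G12D/E2-KO T1, the wider gate margin (adjusted p 0.259) and classes from WT clusters (0.131).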

How the results depend on the processing

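Numbers of members called over all cells moved mainly with the G12D/E2-KO T3 library. In E2-KO against WT 0 became 3 with only the 2 genotypes in the fit, 2 with sex as a covariate and 2 without T3, in G12D 0 became 1 in DESeq2, and in G12D/E2-KO 1 became 0 with no low-count filter and 2 with sex. Against E2-KO, G12D/E2-KO had 4 calls with sex and 3 without T3, and T3 against T1 had 3 with sex, in place of 0. Sex singles out G12D/E2-KO T3 beside the time term, so sex and that library cannot be told apart.

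Summed over the 7 classes, the 5 calls in E2-KO became 9 in DESeq2, 11 with no low-count filter, 16 with 2 genotypes, 15 with sex and 12 without T3. The 1 call in G12D became 4, 3 and 3 in the last 3 settings and 0 with classes from WT clusters, and the 6 calls in G12D/E2-KO became 13 with no filter and 3 with clusters. The excess of S100a6 with Ezh2 deleted was 0.37 with clusters (exact permutation p 0.0625). No call changed direction. The share of all genes called in each setting of this section is not given, so these counts are no result about the members alone. Nor is it given for the edgeR alternatives named in the sections above, whose calls carry the same limit. The uncalled NRas G12D values of S100a8 (-0.15) and S100a13 (-0.08) became 0.02 and 0.03 without E2-KO T3 or without G12D/E2-KO T3.

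The time point was a block in the reported fits. Libraries of the same time point had deviations that correlated by -0.19 to 0.42 (median 0.12, 18 pairs), other libraries by -0.37 to 0.38 (median -0.06, 36 pairs), so the numbers did not pair the libraries in every pair. With no replicate block the calls over all cells were 0, 0 and 1 in E2-KO, G12D and G12D/E2-KO, and over classes 4, 0 and 4. Not called there were, in ProMo, S100a9 in E2-KO (log2 -1.74, adjusted p 0.178) and S100a6 in G12D (0.98, 0.0508), in late GN of G12D/E2-KO S100a9 (-0.62, 0.0632) and S100a6 (0.87, 0.280), and in late Ery S100a8 in G12D/E2-KO (-1.01, 0.206) and the S100a9 interaction (1.08, 0.853), while S100a4 was called in ProMo of G12D/E2-KO (1.42, 0.0405).

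Leaving out 1 library at a time gave 0 to 2, 0 to 0 and 0 to 2 calls over all cells, 0 to 4 against E2-KO, 0 to 0 in the other comparisons, and 5 to 14, 0 to 3 and 3 to 7 over classes. Without G12D/E2-KO T3 the counts were 2 in E2-KO, 2 in G12D/E2-KO, 4 against E2-KO, and 14 and 3 over classes in E2-KO and G12D. Without G12D/E2-KO T2 the classes gave 10 in E2-KO. Without WT T1, WT T3, E2-KO T1, G12D T1 or G12D/E2-KO T2 G12D/E2-KO had 0 calls over all cells, without WT T1, WT T2 or G12D T1 G12D had 0 over classes, and without WT T3 G12D/E2-KO had 3 there. Observed minus calculated log2 levels ranged over -0.26 to -0.09 (Ezh2 deleted) and -0.27 to 0.02 (NRas G12D) for S100a8, -0.39 to -0.21 and -0.29 to -0.10 for S100a9, 0.32 to 0.51 and 0.43 to 0.61 for S100a6, and 0.23 to 0.35 and -0.13 to 0.03 for S100a13. The S100a8 to S100a9 ratio ranged over 0.10 to 0.16 and 0.03 to 0.12 in all cells, 0.04 to 0.10 and 0.03 to 0.14 in late GN, and 0.61 to 0.71 and 0.04 to 0.10 in ProMo. Fewer than 6 pairs cannot reach p under 0.0625. The causes were not tested.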
